A study of Mus musculus with 15 samples.

Results

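Expression of 10 genes of the tibialis anterior, a fast hindlimb muscle, was followed in tumour-bearing and tumour-free mice: Mettl21e, Lrtm1, Trim7, Ptges3l, Cyfip2, Dcakd, Iqcg, Rmdn1, Msrb2 and Npr3. They are 10 of the 47643 gene symbols of the expression table and were chosen by their lower transcript level in tumour-bearing than in tumour-free muscles in these same data. Their tumour differences and the calls made on them are therefore a description and no test, whereas the effect of the drug, on which they were not picked, is tested. All muscles came from female C57BL/6J mice labelled 7 weeks old, collected 49 days after implantation or mock injection, as the series states; the extraction protocol instead mentions another tumour model (LLC) at 3 weeks, a conflict that the labels do not settle. The groups were melanoma plus lisinopril (4 libraries; mice carrying a cachexia-inducing melanoma xenograft and given the angiotensin-converting enzyme inhibitor lisinopril), melanoma (4 libraries; the xenograft with mock treatment), lisinopril (3 libraries; mock injection and lisinopril) and control (4 libraries; mock injection and mock treatment). The labels describe biological replicates, numbered within each group. Because TPM carries no read depth, precision is judged here from the spread between libraries.

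Cachexia is the wasting of muscle that accompanies many tumours. In wasting muscle a well-known set of genes is induced, among them the ubiquitin ligases Trim63 and Fbxo32, which mark muscle proteins for the proteasome. The 10 genes here belong to no single pathway. They encode a lysine methyltransferase of muscle proteins, a ubiquitin ligase that binds the glycogen primer glycogenin, a relative of the HSP90 co-chaperone p23, a subunit of an actin regulator, a likely coenzyme A enzyme, a mitochondrial repair enzyme, a calmodulin-binding flagellar protein, a regulator of microtubule dynamics, a membrane protein with leucine-rich repeats, and a receptor that removes natriuretic peptides.

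Levels are given as TPM, a transcript abundance corrected for transcript length that sums to 1000000 in each library, so levels of different genes can be set side by side. All 10 genes had at least 1 TPM in at least 3 libraries, the filter that kept 11923 genes. Cyfip2 reached 1 TPM in 12 of the 15 libraries, Mettl21e and Trim7 in 14, and the other 7 genes in all 15. "Lost" would overstate the difference: the lowest value of any of the 10 was 0.336 TPM, for Mettl21e in melanoma 2, and none was at 0 in any library.

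The 10 genes lie on 7 mouse chromosomes, and 4 of them, Cyfip2, Trim7, Ptges3l and Dcakd, are on chromosome 11. On the plus strand of mm10 (GENCODE M21) lie Msrb2 at chr2:19371440-19394976, Rmdn1 at chr4:19575162-19606932, Trim7 at chr11:48826140-48852209 and Lrtm1 at chr14:29018208-29033645. On the minus strand lie Mettl21e at chr1:44204070-44218961, Cyfip2 at chr11:46193850-46312859, Ptges3l at chr11:101418812-101425333, Dcakd at chr11:102994047-103028333, Npr3 at chr15:11839896-11907287 and Iqcg at chr16:33012683-33056218. All 10 are annotated as protein-coding. Promoter windows of 300 bases, from 250 bases before to 50 bases after the transcript start, were matched in RefSeq (build GRCm38.p6) for 7 of the 10 genes, with 2 windows for Trim7. Of the 8 windows, 3, in Lrtm1, Iqcg and Trim7, held the letters CAGCTG, a form of the E-box that myogenic regulatory factors of the MyoD family can bind. These 3 are shown because, of the motifs searched, CAGCTG was the only one found. Capitals mark CAGCTG, which reads the same on both strands.

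Lrtm1, chr14:29017958-29018257, plus strand: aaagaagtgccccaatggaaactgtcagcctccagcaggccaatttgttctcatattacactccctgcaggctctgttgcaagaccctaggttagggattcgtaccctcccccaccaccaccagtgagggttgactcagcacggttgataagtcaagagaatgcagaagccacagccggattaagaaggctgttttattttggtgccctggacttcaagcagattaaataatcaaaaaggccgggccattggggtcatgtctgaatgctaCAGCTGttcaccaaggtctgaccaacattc

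Iqcg, chr16:33056137-33056436, minus strand: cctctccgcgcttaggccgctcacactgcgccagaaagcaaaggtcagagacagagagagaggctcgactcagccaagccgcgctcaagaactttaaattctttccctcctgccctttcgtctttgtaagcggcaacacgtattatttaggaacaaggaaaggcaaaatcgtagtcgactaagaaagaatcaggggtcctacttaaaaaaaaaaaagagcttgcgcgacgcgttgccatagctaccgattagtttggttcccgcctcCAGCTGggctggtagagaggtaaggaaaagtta

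Trim7, chr11:48837221-48837520, plus strand: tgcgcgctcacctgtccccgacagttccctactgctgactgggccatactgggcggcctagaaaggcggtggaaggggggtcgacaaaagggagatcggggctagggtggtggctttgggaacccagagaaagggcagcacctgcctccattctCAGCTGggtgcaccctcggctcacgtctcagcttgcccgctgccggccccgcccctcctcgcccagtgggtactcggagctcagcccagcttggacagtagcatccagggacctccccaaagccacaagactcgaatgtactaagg

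The match lies 20 to 25 bases after the start in Lrtm1, 17 to 22 bases after it in Iqcg, and at bases -96 to -91, before the start, in Trim7. Of 32851 promoter windows of the same length, 16.3% held CAGCTG, so 3 of 8 is a description of few windows. No member window held the letters TTCNNNGAA of a STAT element (8.30% of all windows), GTAAACA of a FoxO element (3.65%), TATAAA of a TATA box (13.6%), or a MEF2 element (3.19%) or CArG box (1.63%), each searched on both strands by its usual consensus. These counts say only which letters stand in these windows.

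The levels fell into the same order in nearly every gene, with both tumour-bearing groups below both tumour-free groups. For 9 of the 10 genes all 8 tumour-bearing libraries lay below all 7 tumour-free libraries, and in Cyfip2 7 of the 8 did. Among all genes kept, 0.839% showed such a separation in this direction, but the 10 were picked for it and nothing is read from the comparison. In whole muscle, a lower level can come from fewer cells of a type or from less RNA per cell, and these cannot be told apart.

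Mettl21e encodes a muscle protein-lysine methyltransferase whose human counterpart is a pseudogene. It had 1.42, 4.17, 4.12 and 1.67 TPM in melanoma plus lisinopril muscles and 1.17, 0.336, 3.96 and 3.81 TPM in melanoma muscles, against 8.90, 16.1 and 6.53 TPM in lisinopril muscles and 10.9, 5.21, 5.04 and 25.6 TPM in control muscles. Every tumour-bearing muscle lay below every tumour-free one, with the smallest gap between melanoma plus lisinopril 2 and control 3. Its tumour-bearing mean was 23.1% of its tumour-free mean, and the log2 difference, averaged over both drug arms, was -1.72 ± 0.37 (SE from limma on log2(TPM + 1), the scale of all log2 differences here). Tumour-free muscles varied widely, with a coefficient of variation of 66.5%.

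Cyfip2, a subunit of the WAVE complex that starts branched actin networks, showed the largest difference of the 10. It had 0.710, 0.726, 4.44 and 1.31 TPM in melanoma plus lisinopril muscles and 0.904, 1.03, 1.05 and 1.96 TPM in melanoma muscles, against 4.90, 19.7 and 3.23 TPM in lisinopril muscles and 16.9, 4.23, 12.5 and 36.9 TPM in control muscles. The groups overlapped through 1 library, melanoma plus lisinopril 3, whose 4.44 TPM exceeded lisinopril 3 and control 2. Its mean in tumour-bearing muscles was 10.8% of the tumour-free mean, with a log2 difference of -2.22 ± 0.42. It was also the most variable of the 10 among tumour-free muscles, where the highest library, control 4, held 36.9 TPM and the lowest, lisinopril 3, held 3.23 TPM.

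Lrtm1 encodes a single-pass membrane protein with leucine-rich repeats, and its gene lies within the span of the calcium channel gene Cacna2d3, on the other strand. Lrtm1 had 9.52, 11.6, 22.3 and 5.29 TPM in melanoma plus lisinopril muscles and 12.8, 2.27, 13.2 and 8.78 TPM in melanoma muscles, against 43.7, 26.3 and 52.5 TPM in lisinopril muscles and 34.8, 24.8, 35.6 and 34.2 TPM in control muscles. The 2 sides did not overlap, and melanoma 2 stood lowest. On average, tumour-bearing muscles held 29.8% of the tumour-free mean, with a log2 difference of -1.83 ± 0.32. The host gene Cacna2d3 averaged 0.320 ± 0.136 TPM in tumour-bearing muscles (SD, n = 8) and 0.396 ± 0.111 TPM in tumour-free muscles (SD, n = 7), too low to be tested.

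Npr3 is the clearance receptor, which binds natriuretic peptides and takes them into the cell. It had 2.57, 2.61, 2.52 and 4.29 TPM in melanoma plus lisinopril muscles and 3.62, 1.25, 3.68 and 1.97 TPM in melanoma muscles, against 5.14, 8.73 and 4.43 TPM in lisinopril muscles and 9.09, 14.6, 7.42 and 6.08 TPM in control muscles. No library of one side reached into the other, though melanoma plus lisinopril 4 and lisinopril 3 came within 0.149 TPM. Npr3 in tumour-bearing muscles averaged 35.5% of the tumour-free mean, with a log2 difference of -1.15 ± 0.21. Control 2, the control library with the highest Npr3, also had 23878 TPM of haemoglobin transcripts, against at most 4197 TPM in the other 14 libraries.

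Trim7 is a RING-type ubiquitin ligase that binds glycogenin, the protein on which glycogen chains are started. It had 2.96, 5.15, 8.55 and 5.20 TPM in melanoma plus lisinopril muscles and 8.09, 0.863, 9.85 and 8.22 TPM in melanoma muscles, against 12.7, 15.8 and 11.3 TPM in lisinopril muscles and 20.98, 11.5, 11.4 and 21.1 TPM in control muscles. The sides were apart, and melanoma 2 lay far below the other 3 melanoma muscles. The tumour-bearing mean was 40.8% of the tumour-free mean, with a log2 difference of -1.28 ± 0.34. Without melanoma 2 the difference was -0.99 ± 0.20.

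Ptges3l is a relative of Ptges3, the HSP90 co-chaperone p23. It had 14.001, 16.5, 21.3 and 13.2 TPM in melanoma plus lisinopril muscles and 19.4, 5.02, 18.5 and 14.3 TPM in melanoma muscles, against 37.5, 39.1 and 36.7 TPM in lisinopril muscles and 42.2, 21.8, 30.7 and 33.3 TPM in control muscles. The lisinopril muscles were tightly grouped, and control 2 was the only tumour-free library near the tumour-bearing ones. The tumour-bearing mean was 44.3% of the tumour-free mean, with a log2 difference of -1.21 ± 0.23.

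Dcakd carries a dephospho-coenzyme A kinase domain, the domain of the last step of coenzyme A synthesis. It had 3.34, 4.29, 4.70 and 4.97 TPM in melanoma plus lisinopril muscles and 5.31, 3.92, 5.46 and 3.97 TPM in melanoma muscles, against 7.55, 11.5 and 9.77 TPM in lisinopril muscles and 15.1, 6.42, 10.7 and 9.65 TPM in control muscles. Of the 10 genes it varied least among tumour-bearing muscles, with a coefficient of variation of 16.5%, and melanoma 2 was not its lowest library. Dcakd in tumour-bearing muscles averaged 44.5% of the tumour-free mean, with a log2 difference of -0.98 ± 0.16.

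Iqcg encodes a calmodulin-binding IQ protein of the nexin-dynein regulatory complex of cilia and flagella, known in mice for its need in sperm flagella. It had 2.36, 2.87, 3.06 and 1.36 TPM in melanoma plus lisinopril muscles and 2.38, 1.06, 2.51 and 1.99 TPM in melanoma muscles, against 6.38, 4.89 and 6.32 TPM in lisinopril muscles and 4.80, 3.11, 4.93 and 4.74 TPM in control muscles. The gap was narrow: melanoma plus lisinopril 3 came within 0.0534 TPM of control 2. The tumour-bearing mean was 43.7% of the tumour-free mean, with a log2 difference of -0.95 ± 0.16.

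Rmdn1, a regulator of microtubule dynamics, and Msrb2, the mitochondrial enzyme that reduces the R form of oxidised methionine, were the highest-expressed of the 10 in tumour-bearing muscles apart from Ptges3l and showed the smallest differences. Rmdn1 had 26.5, 26.2, 22.3 and 16.9 TPM in melanoma plus lisinopril muscles and 22.3, 14.8, 19.97 and 20.5 TPM in melanoma muscles, against 32.5, 42.4 and 32.8 TPM in lisinopril muscles and 42.5, 27.1, 46.7 and 37.3 TPM in control muscles. Msrb2 had 14.1, 13.1, 17.3 and 12.9 TPM in melanoma plus lisinopril muscles and 10.2, 10.6, 14.5 and 16.05 TPM in melanoma muscles, against 24.1, 24.0 and 23.0 TPM in lisinopril muscles and 20.9, 19.4, 25.6 and 24.3 TPM in control muscles. Neither gene overlapped between the sides. The tumour-bearing mean was 56.8% of the tumour-free mean for Rmdn1 (log2 difference -0.78 ± 0.14) and 59.1% for Msrb2 (-0.74 ± 0.12). Mitochondrially encoded transcripts made up 28.5% to 46.9% of TPM in tumour-bearing and 40.8% to 52.8% in tumour-free muscles, and with those transcripts removed before rescaling the Msrb2 difference was -0.88.

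**Figure D1:**
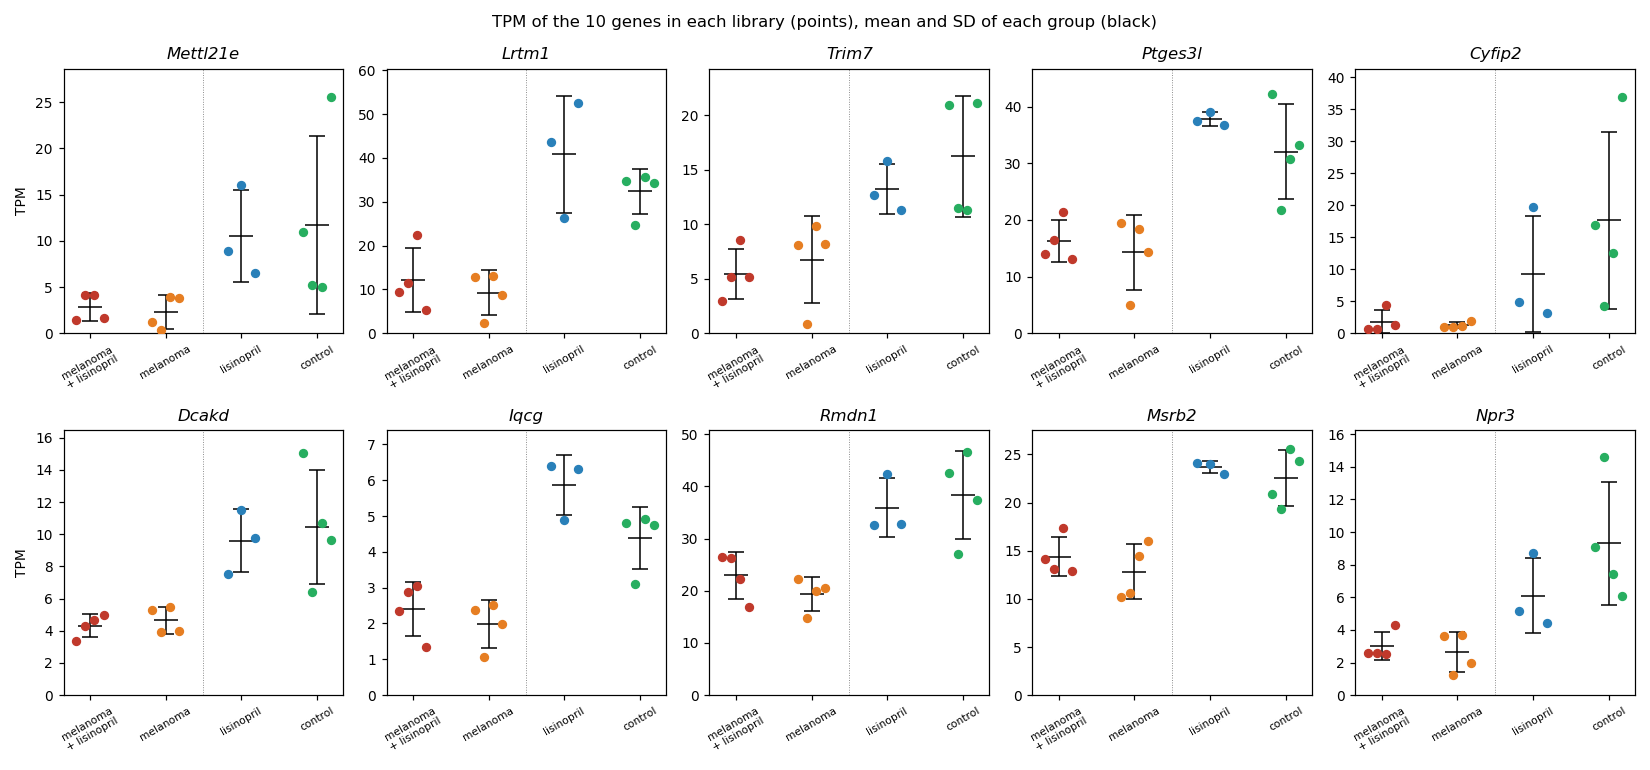
TPM of each of the 10 genes in the 15 libraries (points), with the group mean and SD in black, for melanoma plus lisinopril, melanoma, lisinopril and control muscles. Each tumour-bearing muscle lies below each tumour-free muscle in 9 genes, and in Cyfip2 the 4.44 TPM of melanoma plus lisinopril 3 crosses over.

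As a description of the choice of genes, the log2 differences of the 10, averaged over drug arms, ran from -2.22 to -0.74 with a median of -1.18, beside a median of 0.17 over all 11923 genes. All 10 passed an adjusted p of 0.05 in limma in this average, where 3.45% of genes were lower and 14.5% higher past that threshold. In the single arms 4 of the 10 passed for melanoma against control (Msrb2, Rmdn1, Cyfip2 and Npr3; 0.185% of genes were called lower) and 2 for melanoma plus lisinopril against lisinopril (Dcakd and Iqcg; 0.143%). All 10 had no overlap between melanoma and control muscles (2.89% of genes), and 9 had none between melanoma plus lisinopril and lisinopril muscles (4.41%). Leaving out single libraries moved the count between 0 (without melanoma 2, control 1 or 3, or lisinopril 1) and 9 (without control 2) for melanoma against control, and between 0 and 6 (without melanoma 2) for melanoma plus lisinopril against lisinopril. Calls over all genes, in either direction, moved too. They ran from 17 (without control 3) to 586 (without control 2) in the first arm. In the second they ran from 5 (without lisinopril 1) to 685 (without melanoma 2). In the average only Trim7 lost the threshold, without lisinopril 1, without lisinopril 2 or with no filter (limma adjusted p up to 0.0572). The choice of the genes used these contrasts, so the counts carry no support.

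Scaling between libraries set the median of all genes: its tumour difference was 0.17 on the log2 scale as deposited, -0.0039 once rescaled by median ratios and 0.00073 after quantile normalization. Changes are therefore best read relative to that median. The 10 genes stayed below 0 under both scalings and in every other alternative tried, a sign that their choice on these same libraries favoured.

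**Figure D2:**
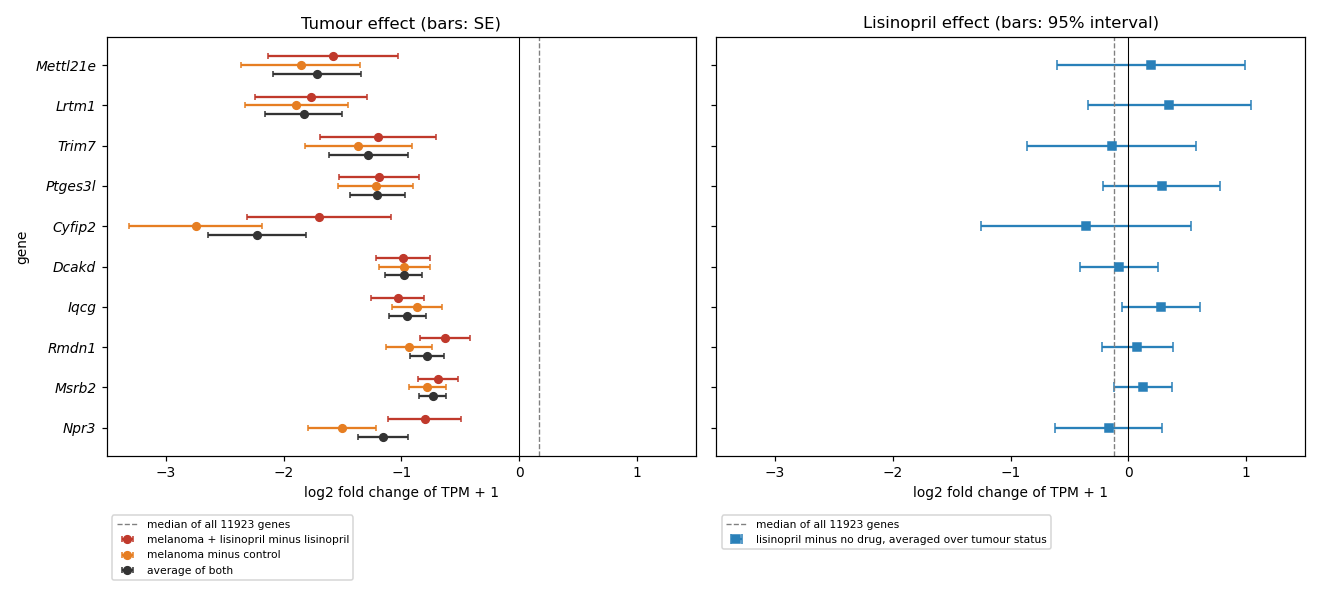
Left, log2 tumour difference of each gene in each drug arm and averaged over both, with SE; right, log2 lisinopril difference averaged over tumour status, with 95% intervals; dashed lines mark the median of all genes. The tumour averages run from -2.22 to -0.74, and all 10 lisinopril intervals include 0.

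Whether lisinopril moved these genes was the question the design allowed to be tested, and no difference passed the threshold. Averaged over tumour-bearing and tumour-free mice, limma called 0 of the 10 and 0 of all 11923 genes (0%) at an adjusted p of 0.05. At an unadjusted p below 0.05 it gave 0 of the 10 and 631 of all genes. The adjusted p-values of the 10 ran from 0.676 to 0.864. The differences themselves ran from -0.36 for Cyfip2 to 0.35 for Lrtm1 on the log2 scale, 6 above 0 and 4 below, with a median of 0.099 beside -0.13 for all genes.

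The intervals show what size of drug effect these libraries could still hold. For Msrb2 the ratio of lisinopril-treated to untreated muscles, on the TPM + 1 scale, was 1.09 with a 95% interval of 0.916 to 1.29. For Rmdn1 it was 1.05 (0.853 to 1.30), and for Dcakd 0.945 (0.750 to 1.19). These 3 intervals leave out a change of 1.5-fold in either direction. Iqcg had a ratio of 1.21 (0.961 to 1.52), with the smallest unadjusted p in limma of the 10, 0.0990. Ptges3l had 1.22 (0.861 to 1.72) and Npr3 0.890 (0.650 to 1.22). The widest intervals belonged to the genes with the largest spread: Lrtm1 at 1.27 (0.787 to 2.05), Trim7 at 0.906 (0.551 to 1.49), Mettl21e at 1.14 (0.656 to 1.98) and Cyfip2 at 0.780 (0.421 to 1.45). The Trim7 value rested on melanoma 2: the log2 difference of -0.14 ± 0.34 became -0.44 ± 0.20 without it, -0.51 ± 0.20 without control 2 as well, and -0.59 with sample quality weights, and none of these passed the threshold in limma. An interval that includes 1 does not show that the drug left a gene as it was.

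Within tumour-bearing mice, melanoma plus lisinopril against melanoma gave 0 calls in limma among the 10 and among all genes (0%; 189 genes at an unadjusted p below 0.05, none of the 10). Of the 10, 8 were above 0, from 0.17 for Cyfip2 to 0.41 for Lrtm1, while Trim7 and Dcakd lay at -0.06 and -0.09. Leaving out melanoma 2 moved Trim7 the furthest, to -0.65 ± 0.28, and Dcakd to -0.15 ± 0.23. It turned 4 of the 8 to below 0: Mettl21e was -0.04 ± 0.50, Lrtm1 -0.07 ± 0.35, Ptges3l -0.10 ± 0.21 and Npr3 -0.03 ± 0.28. No gene of the 10 separated the 2 groups, as 0.881% of all genes did. This contrast shares the melanoma libraries with the tumour contrasts that chose the genes.

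In mice without tumours, lisinopril against control likewise gave 0 calls in limma (0%; 461 genes at an unadjusted p below 0.05, none of the 10), and it shares the control libraries with the tumour contrasts. The values ran from -0.88 ± 0.61 for Cyfip2 and -0.52 ± 0.31 for Npr3 to 0.36 ± 0.23 for Iqcg. None of the 10 separated lisinopril from control muscles, as 4.34% of all genes did. The difference of the tumour effect between the drug arms (melanoma plus lisinopril minus lisinopril, less melanoma minus control) was also called for 0 of the 10 and 0 of all genes (0%; 151 at an unadjusted p below 0.05, none of the 10). It was largest for Cyfip2, at 1.05 ± 0.83, and Npr3, at 0.70 ± 0.42, both with a limma adjusted p of 1.00.

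**Figure D3:**
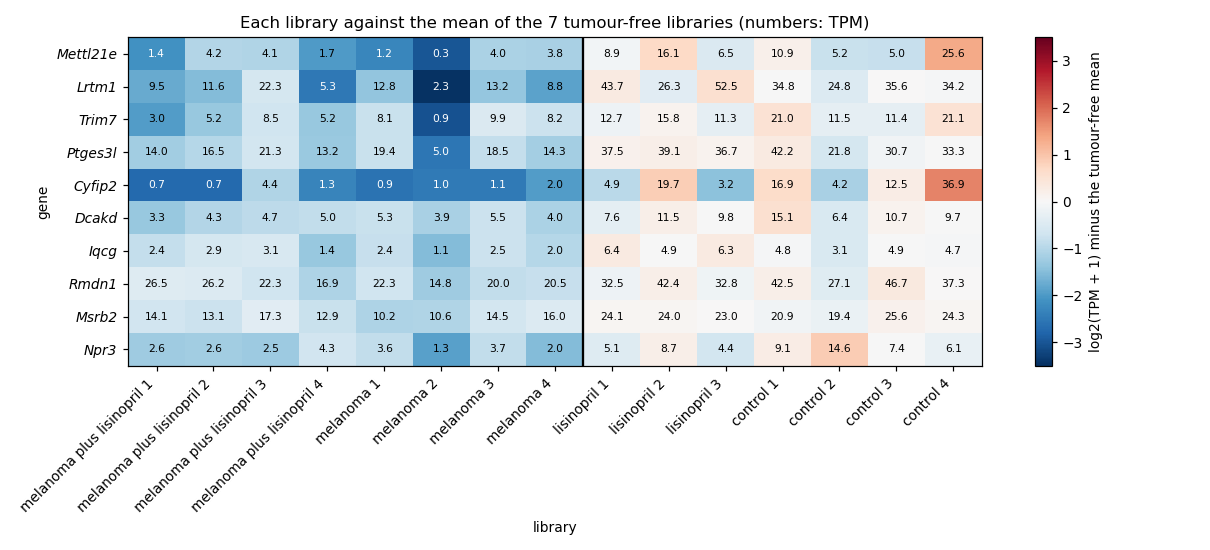
Log2(TPM + 1) of each gene in each library minus its mean over the 7 tumour-free libraries, with TPM printed in the cells and a line between tumour-bearing libraries on the left and tumour-free libraries on the right. Melanoma 2 is the lowest tumour-bearing library for 7 of the 10 genes.

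Single libraries shaped the spread of these genes. Melanoma 2 was the lowest of all 15 libraries for 7 of the 10 (not for Cyfip2, Dcakd or Msrb2), and melanoma plus lisinopril 3 was the highest tumour-bearing library for 5. Among tumour-free libraries, control 2 was lowest for 6 genes but highest for Npr3. Melanoma 2 and control 2 each correlated less with the rest of their group (mean r across genes 0.938 and 0.937) than any other library did (at least 0.965). Melanoma 2 also held the most Trim63 and Fbxo32, at 1974 and 986 TPM, against 167 to 1563 and 66.2 to 777 TPM in the other libraries. Without these 2 libraries, a setting chosen after seeing the data, the averaged tumour differences of the 10 ran from -2.46 to -0.73. All 10 stayed past the threshold in that average, 7 passed in melanoma against control and 10 in melanoma plus lisinopril against lisinopril. In the same order limma then called 3669, 256 and 1918 of all 11747 genes kept, in either direction. In the main analysis it called 2141, 77 and 177 of 11923. The 10 were picked on these contrasts, so their counts carry no support. The lisinopril count stayed at 0.

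Variation within groups was shared by several of the 10, but at the median no more than by other gene pairs once melanoma 2 was left out. Across the 15 libraries, deviations of log2(TPM + 1) from the group mean had a median pairwise Pearson r of 0.43 over the 45 pairs, 41 of them above 0, where the median over all pairs of kept genes was 0.25. The closest pairs were Trim7 with Ptges3l (0.92) and Lrtm1 with Iqcg (0.92). These are descriptions, since all pairs are read from the same 15 libraries, and melanoma 2 weighs on them: without it the median over the 45 pairs was 0.28, beside 0.29 for all pairs. Without melanoma 2 Lrtm1 with Iqcg stayed at 0.88, Mettl21e with Trim7 stood at 0.77, Mettl21e with Cyfip2 at 0.76 and Trim7 with Ptges3l at 0.72. With control 2 left out as well, the median was 0.18 beside 0.29.

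Npr3 shared least of this variation over all 15 libraries. Its median r with the other 9 was 0.0034, and -0.30 without melanoma 2, when it was -0.66 with Iqcg, -0.56 with Msrb2 and -0.51 with Lrtm1. This rested on control 2, the library in which Npr3 was highest and 6 of the other genes were at their tumour-free lowest. With control 2 left out as well, the median r of Npr3 was 0.030, between those of Dcakd (0.023) and Mettl21e (0.11).

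**Figure D4:**
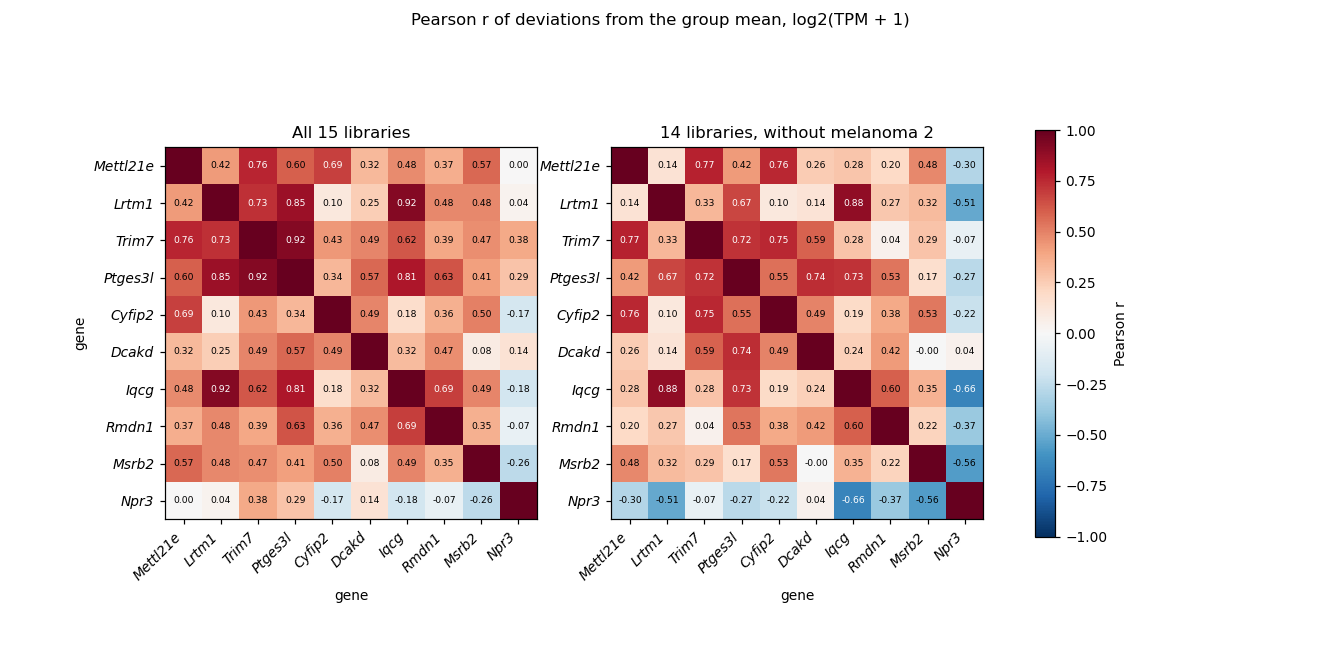
Pearson r between the within-group deviations of each pair of the 10 genes, over all 15 libraries (left) and over the 14 libraries without melanoma 2 (right). Npr3 has a median r of 0.0034 with the other 9 on the left and -0.30 on the right.

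Over the same 15 libraries the genes with the most similar within-group pattern, among 7516 with a mean of at least 5 TPM, were named for each member. For Ptges3l they were the fast myosin light chain gene Myl1 (r = 0.97), Tomm40l (0.96) and the acetylcholinesterase gene Ache (0.95). For Trim7 they were Sypl2 (0.97), Itm2a (0.96) and Myoz3 (0.95), and for Lrtm1 Pde4a (0.93), Eml1 (0.91) and Ociad2 (0.91). Iqcg was nearest to Pdhx (0.95), a subunit of the pyruvate dehydrogenase complex, to Lrtm1 itself (0.92) and to Taco1 (0.91). Rmdn1 was nearest to Atp1b1 (0.93), Sdhd (0.93), a subunit of succinate dehydrogenase, and Mtfp1 (0.92).

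The remaining 5 had looser partners over these 15 libraries. Without melanoma 2 that order did not hold throughout. The partners of Dcakd then had r of 0.88, 0.90 and 0.87, and those of Lrtm1 0.86, 0.81 and 0.80. Those of Rmdn1 stood at 0.92, 0.91 and 0.93, and those of Cyfip2 at 0.81, 0.81 and 0.76. Msrb2 was nearest to mt-Nd1, a mitochondrially encoded subunit of complex I (0.86), to the clock output gene Dbp (0.86) and to Tmem218 (0.86). Dcakd was nearest to Klc4 (0.87), Tmem55a (0.86) and Trim35 (0.86), Npr3 to Pbx2 (0.87), Sppl2b (0.86) and Ptdss1 (0.84), Mettl21e to Prss23 (0.83), Uxs1 (0.83) and Lrrfip1 (0.78), and Cyfip2 to Rab3a (0.81), Ostm1 (0.80) and Fzd9 (0.76).

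Within 100 kb of the 10 genes lay 27 other kept genes, of which limma called 0 lower (0 also at an unadjusted p below 0.05 and with a value below 0) and 5 higher in the averaged tumour contrast: Ercc5 near Mettl21e, Cpne3 near Rmdn1, Nmt1 and Plcd3 near Dcakd, and Lrch3 near Iqcg. Of all genes, 3.45% were called lower and 14.5% higher, and these counts are no result about the neighbours. Both Nmt1 and Lrch3 overlap their neighbour on the opposite strand. Nmt1, an N-myristoyltransferase gene, overlaps Dcakd and averaged 36.1 TPM in tumour-bearing and 25.0 TPM in tumour-free muscles (log2 difference 0.49 ± 0.16, limma adjusted p = 0.0477). Lrch3 overlaps Iqcg and averaged 11.1 against 7.82 TPM (0.48 ± 0.16, adjusted p = 0.0498). The library kit keeps the strand, per the labels, but how reads of overlapping genes were assigned is not stated in the labels. Ptges3l overlaps Gm27029 on its own strand, whose mean was 1.13 TPM in tumour-bearing and 1.65 TPM in tumour-free muscles, so reads of that gene could be shared with Ptges3l.

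The closest relatives and partners of the 10 were compared in the averaged tumour contrast, on lists chosen with results of these data known. Each count is to be read beside the 3.45% of all genes called lower and the 14.5% called higher in this contrast. Of the natriuretic peptide system, 7 of 11 listed genes were kept, and 4 were called higher and 1 lower, with a median difference of 0.68 beside 0.17 for all genes. The one called lower was Ostn, which encodes osteocrin (musclin), a secreted muscle peptide that binds the clearance receptor. Ostn had 0.384, 0.604, 6.49 and 1.31 TPM in melanoma plus lisinopril muscles and 0.596, 0.300, 1.60 and 1.34 TPM in melanoma muscles, against 8.64, 18.9 and 27.6 TPM in lisinopril muscles and 5.15, 0.620, 9.61 and 42.4 TPM in control muscles. Control 2 and melanoma plus lisinopril 3 crossed between the sides. The log2 difference was -2.47 ± 0.57 (limma adjusted p = 0.0129), and it stayed past the threshold in all 25 alternatives.

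The 4 genes that rose were Npr1, Nppc, Pde9a and Furin, a protease that processes natriuretic peptide precursors. Npr1, the guanylyl cyclase receptor for atrial and B-type natriuretic peptides, averaged 8.72 ± 1.88 TPM in tumour-bearing muscles (SD, n = 8) and 5.01 ± 1.28 TPM in tumour-free muscles (SD, n = 7), a log2 difference of 0.70 ± 0.15 (limma adjusted p = 0.00983). Nppc, the C-type peptide, was low in both, at 0.934 ± 0.352 TPM in tumour-bearing and 0.175 ± 0.123 TPM in tumour-free muscles (0.71 ± 0.13, adjusted p = 0.00412). Pde9a, a phosphodiesterase that breaks down cyclic GMP, averaged 3.02 ± 1.15 TPM in tumour-bearing and 0.949 ± 0.568 TPM in tumour-free muscles (1.05 ± 0.17, adjusted p = 0.00265). Nppc passed the expression filter only through tumour-bearing libraries, and Pde9a reached 1 TPM in 1 tumour-free library, control 2; both calls held in 24 alternatives, no filter among them (limma adjusted p up to 0.0156 and 0.0101). Npr2, the receptor for the C-type peptide, was not called, at 24.2 ± 2.48 TPM in tumour-bearing and 22.7 ± 3.26 TPM in tumour-free muscles, and its difference of 0.11 changed sign with rescaling.

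**Figure D5:**
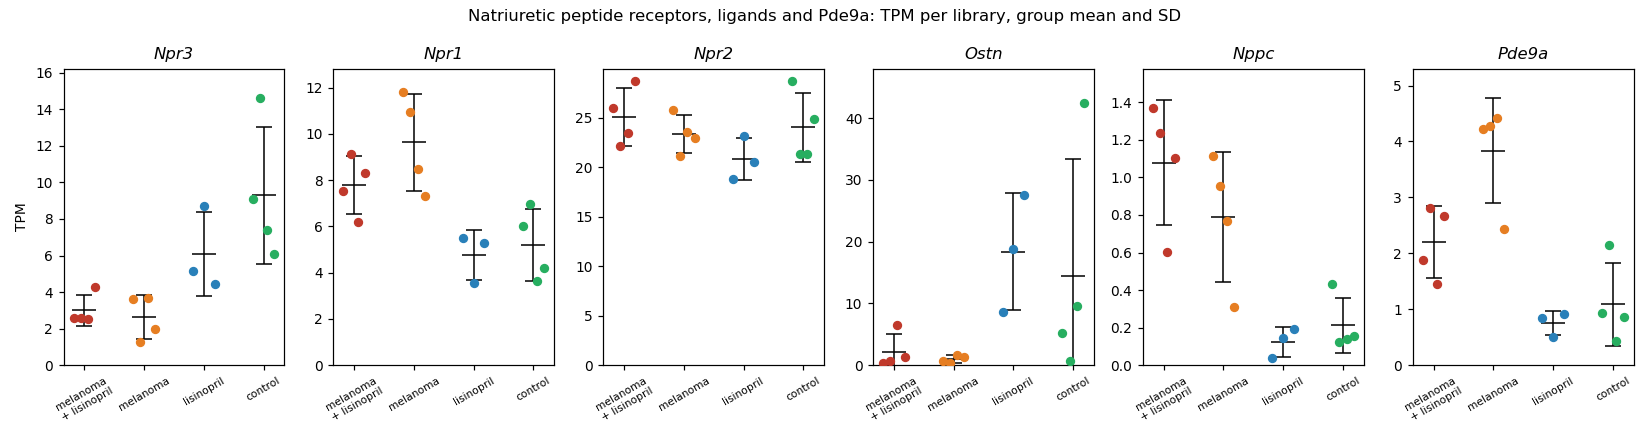
TPM of the natriuretic receptor genes Npr3, Npr1 and Npr2, the ligand genes Ostn and Nppc, and Pde9a in the 15 libraries (points), with group mean and SD, for melanoma plus lisinopril, melanoma, lisinopril and control muscles. Npr3 and Ostn are lower and Npr1, Nppc and Pde9a higher on average in tumour-bearing muscles, while Npr2 lies between 18.8 and 28.8 TPM in all groups.

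Npr3 and Npr1 are also expressed outside muscle fibres, for example in vessels. Of 6 endothelial markers kept, limma called Kdr lower (7.11 ± 2.37 TPM in tumour-bearing and 13.3 ± 2.30 TPM in tumour-free muscles) and Tek higher (14.9 ± 4.61 against 9.53 ± 3.20 TPM), and their summed level was 93.8 to 157 TPM against 71.3 to 175 TPM. Neither of the 2 kept smooth muscle markers was called (0 also unadjusted), with sums of 27.1 to 53.2 TPM in tumour-bearing and 29.1 to 90.9 TPM in tumour-free muscles. The part of these cell types in the Npr3 result was not tested.

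The muscle TRIM ligases went mostly the other way from Trim7. Of 5 listed, all kept, 3 were called higher and 1 lower, with a median of 0.63. Trim72, a membrane repair protein, averaged 264 ± 50.9 TPM in tumour-bearing and 137 ± 31.2 TPM in tumour-free muscles (log2 difference 0.98 ± 0.14, limma adjusted p = 0.00134). Trim63, the atrophy ligase MuRF1, averaged 790 ± 661 TPM against 225 ± 66.8 TPM (1.47 ± 0.43, adjusted p = 0.0343). Trim54 averaged 465 ± 143 TPM against 288 ± 39.5 TPM (0.63 ± 0.19, adjusted p = 0.0340), and Trim55 32.8 ± 5.40 TPM against 45.9 ± 7.67 TPM (-0.49 ± 0.13, adjusted p = 0.0226). Trim63 and Trim54 lost the call in 8 and 10 of 25 alternatives (adjusted p up to 0.0766 and 0.0816), among them leaving out any 1 lisinopril library, control 3, or melanoma plus lisinopril 1 or 4 (Trim63 also without control 4, Trim54 also without control 1 or melanoma 1), and Trim55 without lisinopril 1 or 3 (up to 0.0544).

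Of 14 kept genes of glycogen metabolism, the setting of Trim7, 3 were called higher and 0 lower, with a median of 0.19. Ppp1r3c, which targets protein phosphatase 1 to glycogen, averaged 787 ± 518 TPM in tumour-bearing and 219 ± 53.6 TPM in tumour-free muscles (1.62 ± 0.35, limma adjusted p = 0.00991). Gyg, glycogenin itself, averaged 383 ± 70.9 TPM against 268 ± 17.1 TPM (0.50 ± 0.12, adjusted p = 0.0137), a call that median-ratio rescaling ended (0.29, adjusted p = 0.0723).

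Of 12 kept genes of the WAVE complex and its partners, 0 were called lower and 2 higher, with a median of 0.33. These were Nckap1, a scaffold subunit (0.43 ± 0.13, limma adjusted p = 0.0404) and Rac1, the small GTPase that activates the complex (0.35 ± 0.10, adjusted p = 0.0331), and both calls ended with median ratios (0.22 and 0.14) and with quantile normalization (0.24 and 0.14). Leaving out control 1, 3 or 4, lisinopril 1 or 2, melanoma 1, or melanoma plus lisinopril 1 or 4 also ended both, lisinopril 3 ended that of Rac1 and melanoma plus lisinopril 2 that of Nckap1 (adjusted p up to 0.141 and 0.161 over all alternatives). Cyfip1, the paralogue of Cyfip2, averaged 5.80 ± 0.425 TPM in tumour-bearing muscles and 5.59 ± 2.38 TPM in tumour-free muscles (0.13 ± 0.15, adjusted p = 0.534; -0.04 and -0.05 after the 2 rescalings). In tumour-free muscles Cyfip2 averaged 14.05 ± 11.99 TPM, so there its mean exceeded that of Cyfip1, while in tumour-bearing muscles it averaged 1.52 ± 1.25 TPM. This did not hold in every tumour-free library: lisinopril 3 had 3.23 TPM of Cyfip2, below the lowest tumour-free value of Cyfip1, 3.92 TPM.

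The oxidised-methionine list of Msrb2 had 8 kept genes, 1 called lower and 1 higher, with a median of -0.03. Msra, which reduces the S form, averaged 13.6 ± 1.66 TPM in tumour-bearing and 20.4 ± 3.46 TPM in tumour-free muscles (-0.55 ± 0.12, limma adjusted p = 0.0107). Txnrd1, the cytosolic thioredoxin reductase, averaged 83.4 ± 39.3 TPM against 44.4 ± 7.69 TPM (0.79 ± 0.19, adjusted p = 0.0158). Msrb3, the reductase of the endoplasmic reticulum, was not called (-0.38 ± 0.18, adjusted p = 0.141). Both Msra and Txnrd1 kept their calls in all 25 alternatives.

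The coenzyme A list around Dcakd had 12 kept genes, 2 called lower and 0 higher, with a median of -0.04. Ppcs, the second enzyme of coenzyme A synthesis, averaged 4.81 ± 1.00 TPM in tumour-bearing and 7.50 ± 1.14 TPM in tumour-free muscles (-0.55 ± 0.13, limma adjusted p = 0.0133, called in all 25 alternatives). Nudt7, a peroxisomal coenzyme A diphosphatase, averaged 6.61 ± 1.88 TPM against 10.1 ± 1.98 TPM (-0.54 ± 0.16, adjusted p = 0.0346), a call lost in 11 of 25 alternatives (adjusted p up to 0.0871), including without control 1, 3 or 4, lisinopril 1 or 2, melanoma 1 or 2, or melanoma plus lisinopril 1 or 4.

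The HSP90 co-chaperone list of Ptges3l had 12 kept genes, 3 called higher and 0 lower, with a median of 0.17. Fkbp5, a glucocorticoid-responsive co-chaperone, averaged 90.1 ± 64.6 TPM in tumour-bearing and 11.6 ± 13.4 TPM in tumour-free muscles (3.08 ± 0.45, limma adjusted p = 0.00143). Hsp90ab1, the constitutive cytosolic HSP90, differed by 0.58 ± 0.18 (adjusted p = 0.0373) and Ptges3, p23 itself, by 0.55 ± 0.17 (adjusted p = 0.0430), the opposite sign to Ptges3l. Both calls ended with median-ratio rescaling (adjusted p = 0.0657 and 0.0672) and without any 1 lisinopril library, control 3 or 4, melanoma 1 or 2, or melanoma plus lisinopril 1 or 4, and that of Ptges3 also without control 1 or melanoma plus lisinopril 2 (adjusted p up to 0.0852 and 0.0920). Aarsd1, listed for its co-chaperone domain, was not called (0.10 ± 0.10, adjusted p = 0.477) and changed sign with rescaling.

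Little passed in the other families. Among 9 kept genes of protein lysine methylation, limma called 0, with a median of 0.16, and at an unadjusted p below 0.05 gave 1 higher and 1 lower. Mettl21c, the closest muscle relative of Mettl21e, averaged 2.14 ± 1.65 TPM in tumour-bearing and 4.61 ± 2.26 TPM in tumour-free muscles (-0.99 ± 0.34, limma adjusted p = 0.0539), and 8 of 24 alternatives called it lower. Neither Rmdn2 nor Rmdn3 was called (0 also unadjusted), with Rmdn3 at -0.16 ± 0.21. None of 6 kept genes listed beside Lrtm1 was called (1 higher unadjusted), with Lrtm2 at -0.65 ± 0.34 (adjusted p = 0.174). Of 9 genes listed beside Iqcg, 4 were kept, and the calmodulin gene Calm2 was called lower (110.5 ± 36.4 TPM in tumour-bearing and 174 ± 20.1 TPM in tumour-free muscles, -0.73 ± 0.21, adjusted p = 0.0319), a call lost without control 1 or 4, any 1 lisinopril library, or melanoma plus lisinopril 1 or 4 (adjusted p up to 0.0707).

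Of 14 fast-fibre genes 1 was called, Atp2a1, the fast calcium pump, which was higher (0.57 ± 0.16, limma adjusted p = 0.0307; 0.36, adjusted p = 0.124, after median-ratio rescaling; up to 0.169 over all alternatives, and also lost without control 1 or 3, lisinopril 1 or 2, melanoma 1, or melanoma plus lisinopril 1 or 4). At an unadjusted p below 0.05, 5 of the 14 were higher and 4 lower. Of 10 slow-fibre genes limma called 0 (1 higher and 1 lower at an unadjusted p below 0.05), and of 6 kept denervation genes 0 (0 unadjusted). In single arms the slow-fibre median was -0.19 for melanoma against control (2 lower unadjusted). It was 1.65 for melanoma plus lisinopril against lisinopril (4 higher unadjusted). For lisinopril against control, 3 slow-fibre and 4 denervation genes were lower unadjusted. None of these was called by limma. All 7 myofibre markers were kept and 0 were called (2 higher unadjusted), and their summed level was 53141 to 131620 TPM in tumour-bearing and 63288 to 114337 TPM in tumour-free muscles. All 4 neutrophil markers were called higher, with sums of 29.8 to 336 TPM in tumour-bearing and 9.62 to 88.3 TPM in tumour-free muscles. The B and plasma cell markers, 2 of 4 kept, held 1 lower call, Ighm (2 lower unadjusted), and their summed level was 2.46 to 20.97 TPM in tumour-bearing and 33.5 to 233 TPM in tumour-free muscles, with no overlap. Of 4 tenocyte markers 1, Tnmd, was called lower (3 lower unadjusted), with sums of 16.05 to 66.8 TPM against 35.7 to 107 TPM. Called higher were Pdgfra and Dcn of 6 fibroadipogenic markers (sums of 338 to 767 TPM against 185 to 1012 TPM), Mrc1 of 5 macrophage markers (40.3 to 135 TPM against 16.8 to 97.0 TPM) and Chodl of 3 kept satellite cell markers. The fibroadipogenic list went both ways: its median was -0.37 beside 0.17 for all genes, with 2 higher and 1 lower unadjusted. Of the adipocyte (3 kept) and red cell (5) markers limma called 0 (0 unadjusted), with medians of 0.54 and -1.37. The red cell sums were 160 to 2220 TPM in tumour-bearing and 426 to 23990 TPM in tumour-free muscles. Those of the adipocyte markers were 5.52 to 43.3 TPM against 1.09 to 52.1 TPM. The part of these cells in the levels of the 10 genes was not tested. No defining marker of any cell type list was at 0 in every library. In the lisinopril average 0 genes of any of these lists were called by limma.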

How the data were processed

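RNA was sequenced from 15 tibialis anterior muscles with a stranded mRNA kit, per the labels' protocols. The authors deposited 1 table of TPM (length-corrected abundance) for 47643 gene symbols. The submitters' processing notes name build mm10. Not given in the sources used here: aligner, counter, annotation and strand setting. TPM keeps no read depth. The 10 members and all gene lists were chosen with earlier results of these data known.

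Values were tested as log2(TPM + 1) with limma 3.58.1 (R 4.3.3): genes with at least 1 TPM in at least 3 libraries, 4 group means, empirical Bayes with trend, two-sided, Benjamini-Hochberg adjusted p below 0.05 over all kept genes. The scripts were tested on simulated data. Each p-value sets a difference of group means against the spread between these samples within groups, as estimated by limma. Fold changes understate those of low genes. Named were all 10 members, up to 4 called genes of each list with the largest tumour change, the closest relatives, and the 3 genes most alike each member; single markers, called neighbours and Furin were named after their values were seen. Some genes and 1 marker list are not reported here. Positions came from GENCODE M21 and promoters from RefSeq. Alternatives changed the pseudocount (0.1), filter, scaling, variance model, weights, replicate block, mitochondrial genes and libraries; leaving out control 2 and melanoma 2 was chosen after seeing the data.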

Additional observations from a re-analysis of the deposited data

Results flagged for a closer look

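In 30 groups of 4 libraries, 1 library stood far from the other 3 in 5 cases, by the gap to its nearest neighbour over the range of the group. Chance flags about 1 in 20 groups. Control 2 was low for Iqcg (0.899) and for Lrtm1 (0.866). Npr3 was high in melanoma plus lisinopril 4 (0.952). Cyfip2 was high in melanoma plus lisinopril 3 (0.839) and in melanoma 4 (0.858).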

How the results depend on the processing

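In 767 recomputed tumour differences of the 10 genes, all were below 0. The genes were picked for lower levels in these same tumour-bearing libraries, so this sign was favoured by the choice and carries no support. The count called by limma for melanoma against control (4 in the main analysis) was 0 with no filter or with only the 2 groups compared, 2 with a stricter filter, 7 without control 2 and melanoma 2, 10 with sample quality weights, and 0 to 9 when 1 library was left out. Calls over all genes, in either direction, moved as well, from 77 in the main analysis. They were 40 with no filter, 5 with only the 2 groups and 30 with the stricter filter. Without control 2 and melanoma 2 they were 256, with weights 1710, and with 1 library left out 17 to 586. For melanoma plus lisinopril against lisinopril (2) it was 0 with no filter, 7 with only the 2 groups compared, 9 with weights, 10 without control 2 and melanoma 2, and 0 to 6 when 1 library was left out. Here the calls over all genes were 177 in the main analysis, 14 with no filter and 876 with only the 2 groups. With weights they were 2303, without control 2 and melanoma 2 1918, and with 1 library left out 5 to 685. Both member counts depend on the setting, as do the calls over all genes, and the cause was not tested. All drug counts stayed 0.

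Of 767 recomputed drug differences, 38 changed sign, none with a call. For the lisinopril average, weights gave Mettl21e -0.45; leaving out control 2 and melanoma 2 gave Mettl21e -0.12, Ptges3l -0.00018 and Rmdn1 -0.059; median-ratio and quantile scaling gave Dcakd 0.040 and 0.085. Leaving out 1 library gave Dcakd -0.18 to 0.0090 and Rmdn1 -0.00095 to 0.14. For lisinopril against control, weights gave Mettl21e -0.79, leaving out both libraries gave Mettl21e -0.20, and the 2 scalings gave Dcakd 0.11 and 0.18 and Rmdn1 0.13 and 0.076. Leaving out 1 library gave Mettl21e -0.27 to 0.50, Dcakd -0.27 to 0.11 and Rmdn1 -0.23 to 0.024. For melanoma plus lisinopril against melanoma, weights gave Mettl21e -0.11, Ptges3l -0.027 and Npr3 -0.15; leaving out both libraries gave Mettl21e -0.043, Lrtm1 -0.075, Ptges3l -0.10 and Npr3 -0.025; a pseudocount of 0.1 gave Trim7 0.043. Leaving out 1 library gave Mettl21e -0.043 to 0.59, Lrtm1 -0.075 to 0.71, Trim7 -0.65 to 0.19, Ptges3l -0.10 to 0.48, Cyfip2 -0.21 to 0.34, Dcakd -0.15 to 0.0072 and Npr3 -0.025 to 0.33.

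Among relatives in the averaged tumour contrast, median-ratio and quantile scaling gave Cyfip1 -0.044 and -0.053, Npr2 -0.093 and -0.076 and Aarsd1 -0.10 and -0.086. Without mitochondrial genes Npr2 was -0.017 and Aarsd1 -0.025, weights gave Aarsd1 -0.015, and leaving out control 2 and melanoma 2 gave Rmdn3 0.00077.

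Same-numbered libraries of different groups correlated in their deviations at -0.15 to 0.36 (median 0.083, 21 pairs). Differently numbered ones correlated at -0.42 to 0.36 (median -0.035, 63 pairs). Whether the replicate numbers pair the samples was not tested. With the number as a replicate block, 10 members were called in the tumour average, 4 for melanoma against control, 3 for melanoma plus lisinopril against lisinopril, and 0 in each drug contrast. Of all 11923 genes, limma then called 2172, 120 and 356 in the tumour contrasts, in that order and in either direction. In each drug contrast it called 0. The members were picked on the tumour contrasts, so their counts there carry no support.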
